A study of Mus musculus with 6 samples.

Results

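Naive embryonic stem cells, which resemble the inner cell mass of the blastocyst, do not form a uniform culture. Some of their marker genes are on in one cell and off in its neighbour, and cells pass between these states while they keep dividing. The genes described here are Dppa3, Fbxo15, Tcl1, Pecam1 and Dppa5a, markers of naive embryonic stem cells that do not encode sequence-specific transcription factors. They were taken as the non-control probes whose RefSeq accession in the scanner files maps to these 5 genes, among 15647 named genes and 25898 features tested in all. Each gene had 1 probe, and every one of the 5 probes was well above background on all 6 arrays.

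Dppa3 (also called Stella) encodes a maternal factor that protects methylated DNA in the early embryo and binds the DNA methylation cofactor UHRF1. Fbxo15 encodes an F-box protein, the part of an SCF ubiquitin ligase that picks the substrate, and it is a direct target of the factors OCT4 and SOX2. Tcl1 encodes a coactivator of AKT kinases that supports the growth of embryonic stem cells. Pecam1 (CD31) encodes an adhesion receptor of the immunoglobulin superfamily found on the inner cell mass, on naive stem cells and on endothelium. Dppa5a (Esg1) encodes a KH-domain protein that binds RNA.

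RNA of the mouse embryonic stem cell line J1 was hybridised to 1-colour Agilent arrays. J1 is of strain 129S4/SvJae and from the inner cell mass, and here it was adapted to gelatin and grown on it in serum replacement medium with 1000 U/mL of the cytokine LIF, which the controls received too. The control group was kept for 24 h with DMSO (3 arrays) and the other group for 24 h with 3 µM SB431542 (3 arrays), an inhibitor of the type I receptors that carry Nodal, activin and TGF-beta signals. The protocol text mentions the inhibitor for every sample, and the groups follow the titles and the treatment label. The labels do not say whether replicates came from separate cultures. The spread behind each p-value is therefore that among these samples and could be technical.

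The arrays held 59305 non-control spots each, and 63.9% to 66.2% of these were well above background. The median of all log2 changes was 0.02. The 3 DMSO arrays and SB431542 replicates 1 and 2 shared slide 1, on which the groups also lay in different rows, and SB431542 replicate 3 lay alone on slide 2 in the same row as the DMSO arrays. On slide 1 row and group cannot be told apart. The feedback targets Lefty1, Lefty2 and Smad7, which depend on Nodal signalling, all fell, with a log2 change of -4.59 ± 0.05 (SE) for Smad7. Of the 6 embryonic stem cell markers Pou5f1, Sox2, Nanog, Zfp42, Sall4 and Utf1, all were well above background on every array, 5 did not pass the test and Utf1 fell. Their summed signal, in units of the array's 75th percentile, was 151.9 to 158.1 with DMSO and 132.5 to 145.9 with SB431542. Without Utf1 it was 89.6 to 92.4 and 87.0 to 96.5, so the groups overlapped.

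The 5 genes split in direction. Dppa3 and Fbxo15 rose by about the same amount, while Tcl1, Dppa5a and Pecam1 fell, and none of them changed 2-fold. All 5 passed the test (limma, Benjamini-Hochberg adjusted p under 0.05), against 12.6% of all features tested, of which 5.19% were higher and 7.38% lower. In all 5 the groups did not overlap, against 36.0% of all features. The genes were chosen with these results known, so their share of calls is a description of them. Their median log2 change was -0.27.

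**Figure D1:**
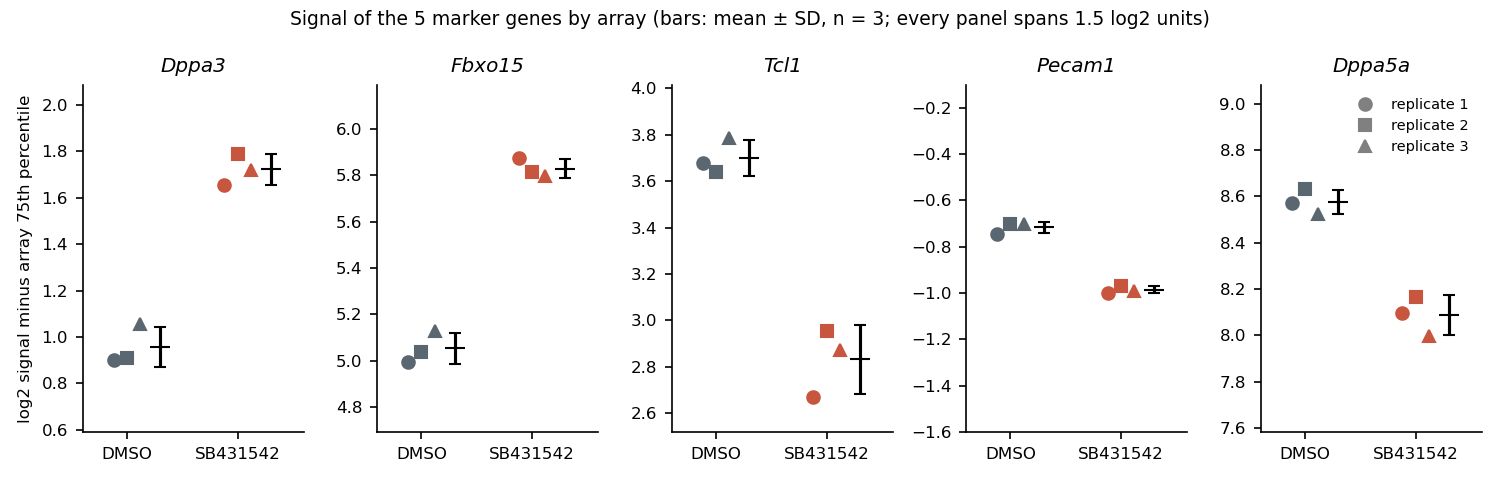
Log2 signal of each gene minus the 75th percentile of its array, for 3 DMSO (grey) and 3 SB431542 (red) arrays, with the mean ± SD (black) of each group. The treated arrays lie above the controls for Dppa3 and Fbxo15 and below them for Tcl1, Pecam1 and Dppa5a, with no overlap. Levels in different panels belong to different probes and cannot be compared.

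Dppa3 was measured by probe A_55_P2091496. Its background-subtracted signal was 1007, 1003 and 1112 intensity units on DMSO replicates 1, 2 and 3, and 1615, 1566 and 1861 on SB431542 replicates 1, 2 and 3. After scaling, as log2 of the signal minus the array's 75th percentile, these were 0.90, 0.91 and 1.05 with DMSO and 1.66, 1.79 and 1.72 with SB431542. Every treated array lay above every control array, and the gap of 0.60 between the groups was wider than the range within either (0.15 and 0.13). The log2 change was 0.77 ± 0.07 (SE, 3 arrays per group, limma adjusted p = 0.00212), a rise of 1.70-fold with a 95% interval of 1.52 to 1.91. Of all features, called or not, 1.10% had a higher log2 change, as did 14.6% of those that rose. In RNA from a whole culture, more cells with Dppa3 on and more Dppa3 RNA per cell cannot be told apart, and the same holds in both directions for the other 4 genes.

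Fbxo15 was measured by probe A_51_P183894. Its scaled log2 signal was 4.996, 5.04 and 5.13 on DMSO replicates 1, 2 and 3, and 5.87, 5.81 and 5.80 on SB431542 replicates 1, 2 and 3. All treated arrays were above all controls, by at least 0.67, and the treated arrays differed among themselves by only 0.08. The log2 change was 0.77 ± 0.06 (SE, 3 arrays per group, limma adjusted p = 0.00125), a rise of 1.71-fold with a 95% interval of 1.55 to 1.89. A higher log2 change was seen in 1.07% of all features, called or not.

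The rises of Dppa3 and Fbxo15 could not be separated. Within each array, the log2 ratio of Dppa3 to Fbxo15, which no scaling between arrays can alter, shifted by -0.01 between the groups, with an SD of 0.03 among DMSO and 0.10 among SB431542 arrays. The groups overlapped in this ratio. Over the 6 arrays, the centred profiles of Dppa3 and Fbxo15 lay at a Euclidean distance of 0.15, and only 5 features of all those tested lay nearer to Dppa3 than Fbxo15 did. This distance was not tested, and features that shift by the same amount between the groups are near one another by construction.

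Of the 5 genes, Tcl1 had an entry in the RefSeq promoter table used here (build GRCm38.p6). Its 250 bases upstream of the start, chr12:105222738-105222987 on the minus strand, are shown because it is the entry at hand for a gene that fell, with a match to the SMAD core motif in capitals.
Tcl1 promoter: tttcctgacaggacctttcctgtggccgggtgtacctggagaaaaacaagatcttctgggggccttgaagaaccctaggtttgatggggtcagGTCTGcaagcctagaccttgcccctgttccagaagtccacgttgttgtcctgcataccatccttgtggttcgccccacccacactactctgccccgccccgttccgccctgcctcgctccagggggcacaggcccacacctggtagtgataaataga
The letters CAGAC, the core that SMAD proteins bind, were searched on both strands, and the single match lay on the strand opposite to the gene and began 157 bases upstream of the start. Of 32851 promoters of the same length, 42.2% hold this motif, so the match is common. No match was found to the FOXH1 motif AATNNACA, held by 10.9% of promoters, to the STAT motif TTCNNNGAA (7.02%) or to the POU octamer ATGCAAAT (1.60%). The GC content of the window was 57.6%, against a median of 52.4% over all promoters. A match in these letters is a description and not a binding site.

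Tcl1 fell, with an estimate further from 0 than those of the other 4 genes. Its interval overlapped in size with those of Dppa3 and Fbxo15 and, at the edge, with that of Dppa5a. Its probe A_55_P1960342 gave scaled log2 signals of 3.68, 3.64 and 3.79 on DMSO replicates 1, 2 and 3, and of 2.67, 2.96 and 2.87 on SB431542 replicates 1, 2 and 3. SB431542 replicate 1 was the lowest, and the SD of the treated arrays (0.15) was above that of the controls (0.08), while the groups stayed 0.68 apart. The log2 change was -0.87 ± 0.09 (SE, 3 arrays per group, limma adjusted p = 0.00361), which is 1.83-fold lower with a 95% interval of 1.56 to 2.13. A lower log2 change was seen in 1.98% of all features, called or not, and in 21.9% of those that fell. Without SB431542 replicate 1 the change was -0.79.

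Dppa5a fell. Its spot was not saturated on any array, reaching at most 27.1% of the scanner's saturation value. Its probe A_55_P2028171 gave scaled log2 signals of 8.57, 8.63 and 8.52 on DMSO replicates 1, 2 and 3, and of 8.10, 8.17 and 7.999 on SB431542 replicates 1, 2 and 3. The treated arrays were all below the controls, with a gap of 0.36. The log2 change was -0.49 ± 0.07 (SE, 3 arrays per group, limma adjusted p = 0.00783), which is 1.40-fold lower with a 95% interval of 1.25 to 1.57. Of the features that fell, 57.6% fell further. The mouse genome holds intronless copies of Dppa5a, and whether the probe also binds their transcripts was not tested.

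Pecam1 fell by the least. Its probe A_55_P2087087 was printed at 2 spots per array, and their mean gave scaled log2 signals of -0.74, -0.70 and -0.70 on DMSO replicates 1, 2 and 3, and of -0.999, -0.97 and -0.99 on SB431542 replicates 1, 2 and 3. The arrays of a group lay close together, with an SD of 0.02 in each, and the groups were 0.22 apart. The log2 change was -0.27 ± 0.05 (SE, 3 arrays per group, limma adjusted p = 0.0186), which is 1.21-fold lower with a 95% interval of 1.11 to 1.31. Taken singly, the spots changed by -0.19 and -0.35, and the groups did not overlap at either. Their log2 values on the same array differed by up to 0.22, which is not far below the size of the change. Of the features that fell, 94.8% did so by more. It missed the threshold in 5 of the 6 fits that left out 1 array, with limma adjusted p of 0.0635, 0.0884 and 0.0875 without DMSO replicates 1, 2 and 3 and of 0.0570 and 0.0508 without SB431542 replicates 1 and 2, while the log2 change stayed between -0.28 and -0.26.

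**Figure D2:**
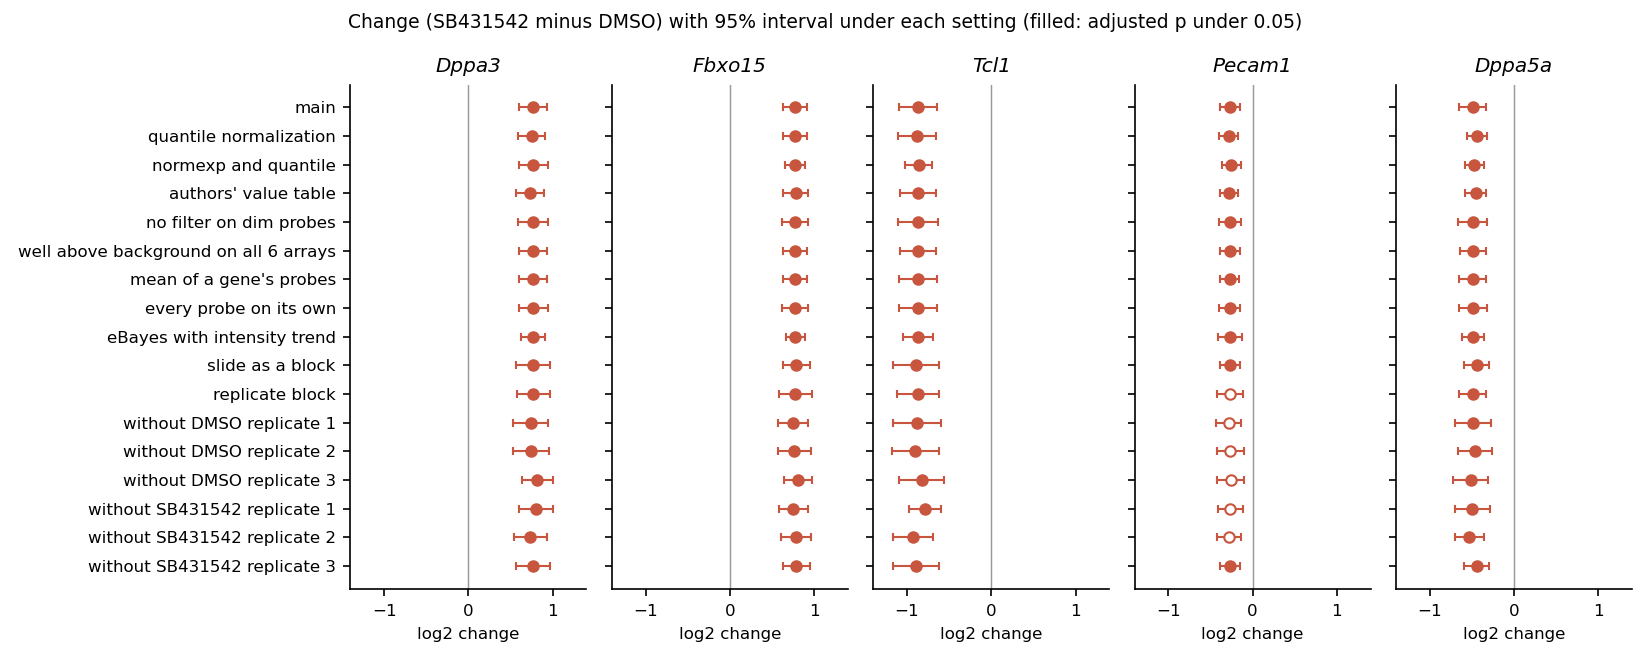
Log2 change (x axis) of each gene with its 95% interval under the main setting and 16 alternatives (y axis). Filled points passed the threshold, and open points did not. The changes of Dppa3, Fbxo15, Tcl1 and Dppa5a passed under all settings shown, and that of Pecam1 under 10 of the 16 alternatives.

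Because the genes moved in opposite directions, ratios of the genes that rose to those that fell shifted by more than the levels did. The ratio of Dppa3 to Tcl1 was 3.11-fold and that of Fbxo15 to Tcl1 3.12-fold higher with SB431542, with no overlap between the groups. The ratio of Dppa3 to Dppa5a was 2.39-fold and that of Dppa3 to Pecam1 2.05-fold higher. The falls were unequal too, for the ratio of Tcl1 to Pecam1 shifted by -0.60 and that of Tcl1 to Dppa5a by -0.38 on the log2 scale, again without overlap. A ratio shows that changes are unequal and leaves their sizes to the scaled values above.

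**Figure D3:**
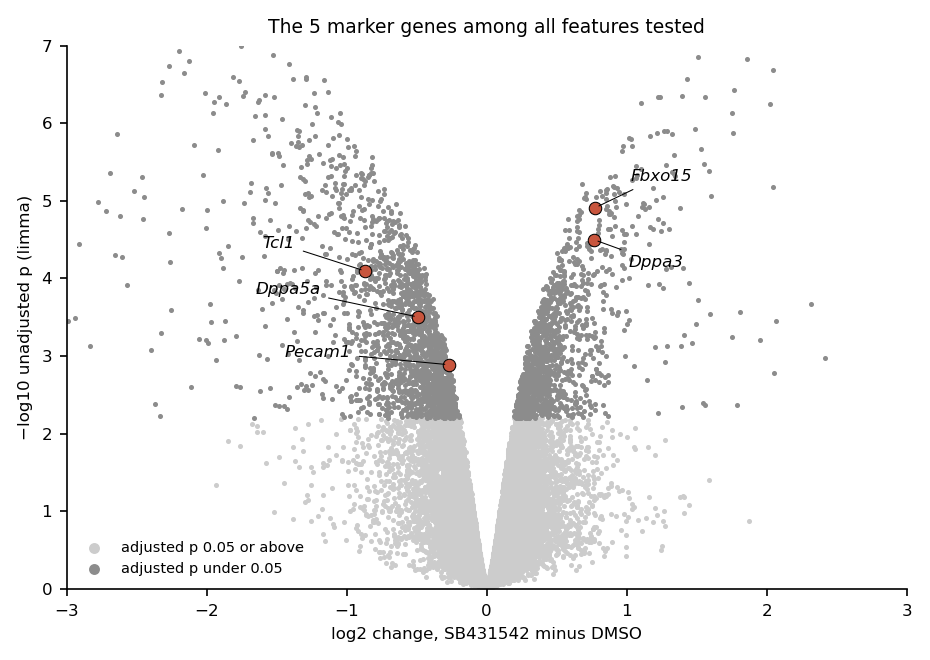
Each point is 1 of the features tested, by its log2 change (x axis) and −log10 of its unadjusted limma p (y axis), with the 5 genes in red and 26 features lying outside the axes. Fbxo15 and Dppa3 lie together among the larger rises, and Pecam1 lies at the inner edge of the called features, where changes are small.

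A list of other transcripts associated with embryonic stem cells was read beside the 5 genes. Of 15 tested, such as the chromatin-associated genes Dppa2 and Dppa4 and the growth factor gene Gdf3, 4 fell and 11 did not pass, with a median log2 change of -0.11. Tdgf1, a Nodal co-receptor gene and a target of the pathway, fell by 1.04 on the log2 scale, the junctional adhesion gene Jam2 by 0.75 (limma adjusted p = 0.00107) and L1td1, an RNA-binding protein gene, by 0.42. The other fall was that of Dnmt3l, a cofactor gene of the DNA methyltransferases, whose log2 change of -0.30 had a limma adjusted p of 0.0496 and passed under 6 of the 16 alternatives. Both tested probes of Jam2 and all 3 of Tdgf1 fell. Probes of the same gene differed in sign for Dppa2 (0.12 and -0.14), Dppa4 (0.11, -0.14 and 0.04) and Gdf3 (0.14 and -0.12), and none of these passed. The closest relatives of Dppa3 by name, Dppa2 (-0.14 ± 0.06) and Dppa4 (0.04 ± 0.05), missed the threshold, while Dppa1 stayed at background on all arrays. In 5 of the 16 alternatives, among them normexp, the authors' value table and slide 1 alone, 1 of these transcripts was called higher.

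Naive transcription factor genes went both ways, as the 5 markers did. Of 11 tested, 3 rose and 2 fell, with a median of -0.09. Klf2 rose by 0.44 ± 0.06, while Tbx3 (-0.68 ± 0.05) and the nuclear receptor gene Nr0b1 (-0.39 ± 0.05) fell. Only 1 gene of this list was called higher when DMSO replicate 1, 2 or 3 or SB431542 replicate 2 was left out. Among 9 genes of the primed epiblast, the later state that implanted embryos pass through, 4 fell and 5 did not pass, with a median of -0.59. Pou3f1, a POU factor gene, changed by -0.98 ± 0.08, and the growth factor genes Fgf5 and Fgf15 were well above background on 0 and 1 of the SB431542 arrays. The count of primed genes that fell ranged over the alternatives from 2, where a probe had to be well above background on all 6 arrays, to 7 with normexp.

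The partners and relatives of each gene were read next. For Tcl1, the kinase genes Akt1 (0.22 ± 0.06) and Akt2 (0.03 ± 0.07), whose products its protein activates, missed the threshold. Tcl1b2 (-0.18 ± 0.26), Tcl1b4 (0.18 ± 0.15) and Mtcp1 (0.13 ± 0.08) missed it too. Tcl1b1 and Tcl1b3 stayed at background on all arrays, and Tcl1b5 was well above it on 1. The Tcl1b genes are close copies of one another, so their identity on the array is uncertain.

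For Dppa5a, 2 relatives of its KH-domain family could be tested, both genes of the oocyte's maternal complex. Khdc3 rose, from 3.29, 3.19 and 3.18 with DMSO to 3.69, 3.77 and 3.64 with SB431542 (log2 change 0.48 ± 0.06, limma adjusted p = 0.00724), opposite in sign to Dppa5a. Ooep, the gene next to Dppa5a, had a value of -0.46 ± 0.12 (limma adjusted p = 0.0634), so it missed the threshold although its groups did not overlap. The family members Khdc1a, Khdc1b and Khdc1c stayed at background on all arrays.

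For Fbxo15, the SCF core genes Skp1 (0.10 ± 0.06), Cul1 (0.09 ± 0.07) and Rbx1 (-0.04 ± 0.08) did not pass, although another, dimmer probe of Rbx1 changed by 0.31 and did. Of the other F-box genes, Btrc fell (-0.32 ± 0.06) on its brighter probe and Fbxw7 (-0.16 ± 0.07) did not pass. The fall of Btrc was lost in 5 of the 6 fits without 1 array, at adjusted p up to 0.0833.

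For Dppa3, none of 7 DNA methylation genes passed limma's test (0 of 7 called, 2 at an unadjusted p under 0.05), and their median was 0.05. Uhrf1, whose protein DPPA3 binds, had a value of 0.14 ± 0.06, the maintenance methyltransferase gene Dnmt1 0.06 ± 0.07 and the demethylase gene Tet1 -0.04 ± 0.06. Dnmt3l, counted above with the transcripts associated with embryonic stem cells, is not among these 7.

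Pecam1 was set beside 12 other surface markers tested in these cells. Cd24a rose (1.12 ± 0.08, limma adjusted p = 0.00116), the receptor tyrosine kinase gene Kit rose (0.47 ± 0.07) and the LIF co-receptor gene Il6st rose (0.33 ± 0.07). The integrin gene Itgb1 fell (-0.26 ± 0.05), by about as much as Pecam1, and 8 did not pass, E-cadherin (Cdh1, 0.12 ± 0.05) among them. The median was 0.08. Kit, Il6st and Itgb1 each lost their call whichever DMSO array was left out, and Il6st and Itgb1 also without SB431542 replicate 1 or 2, whereas Cd24a kept its call under all 16 alternatives.

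**Figure D4:**
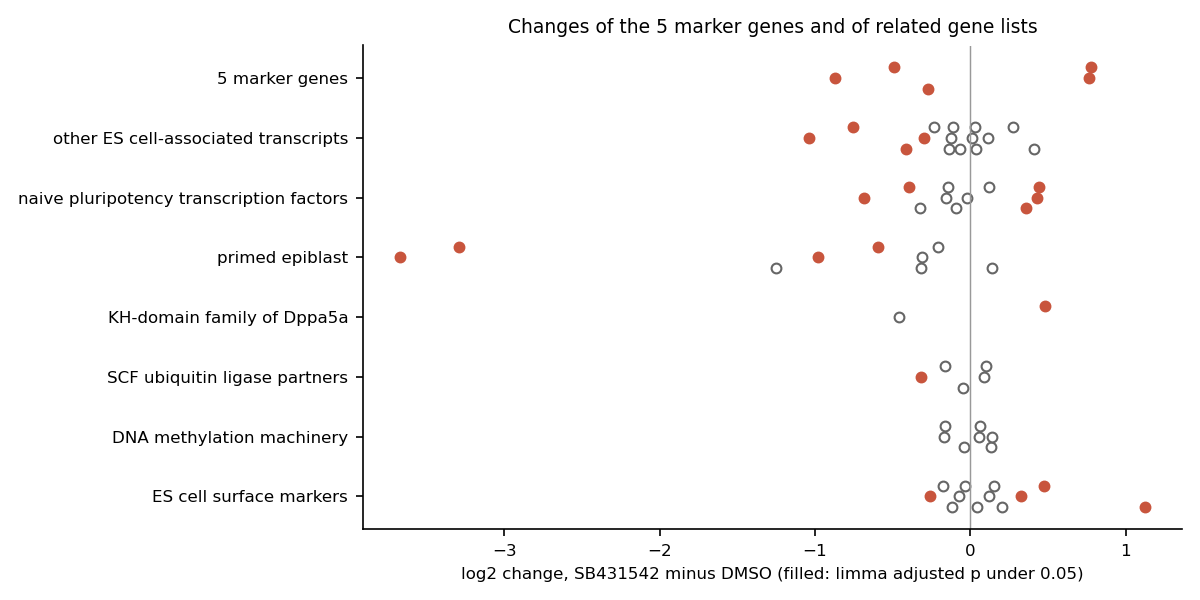
Log2 change (x axis) of the 5 marker genes and of the tested genes of 7 related lists (y axis), 1 point per gene, filled where the limma adjusted p was under 0.05. Most points of the lists are open. Fgf5 and Fgf15 on the far left are fitted values of genes that were well above background on 0 and 1 of the SB431542 arrays.

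Pecam1 and Dppa3 also mark other cell types, so markers of these were read on the same arrays. Of 12 endothelial markers, 9 were tested, 1 rose and 2 fell, with a median of -0.03. The endothelial cadherin gene Cdh5, Emcn and Erg stayed at background on all arrays. Those called, named here after their values were seen, were Esam (0.72 ± 0.09), Robo4 (-0.77 ± 0.06) and Flt1 (-0.47 ± 0.08). Flt1 kept its call in 4 of the 6 fits without 1 array, and Esam and Robo4 kept theirs in all 6. The summed signal of the list, in units of the array's 75th percentile, ran from 16.5 to 17.2 with DMSO and from 16.2 to 19.07 with SB431542. Without Kdr, which made up most of it and did not pass (0.27 ± 0.10), the sum was 5.95 to 6.34 with DMSO and 4.84 to 5.07 with SB431542. Of 9 tested germ cell markers, 1 rose and 4 fell, with a median of -0.25, and Nanos2 was at background. Their summed signal ran from 95.4 to 108.7 with DMSO and from 113.0 to 144.6 with SB431542, but Stra8, which did not pass (0.55 ± 0.15, limma adjusted p = 0.0663), made up most of it. Without Stra8 the sum was 36.3 to 37.7 with DMSO and lower, 30.3 to 32.7, with SB431542. Ddx4, Nanos3, Mael and Ifitm3 fell and Dnd1 rose. Mael and Dnd1 lost their call in all 6 fits without 1 array. Ifitm3 kept it in 1 of these fits, Nanos3 in 3 and Ddx4 in 4. The part of endothelial and germ cells in the changes of the 5 genes was not tested.

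Each of the other marker lists also had 1 gene that made up most of its summed signal, so the sums are given with and without it. Fibroblast markers gave 1 rise and 3 falls among 9 tested, with sums of 45.7 to 47.6 with DMSO and 44.3 to 47.9 with SB431542, and of 2.52 to 2.68 and 2.10 to 2.28 without Vim. Among these falls, Dcn was well above background on 3 DMSO arrays and 0 SB431542 arrays, so its change is a fitted value at background. It kept its call in 2 of the 6 fits without 1 array. Primitive endoderm markers gave 1 rise among 8, with sums of 13.0 to 14.2 and 15.1 to 15.3. Without Lama1, which did not pass (0.16 ± 0.06), these were 1.02 to 1.09 and 1.03 to 1.18, and the groups overlapped. Trophoblast markers gave 2 rises (Tfap2c and Gata3) and 1 fall (Krt8) among 6, while Elf5 and Hand1 stayed at background. Their sum was 12.2 to 12.9 with DMSO and 27.1 to 27.6 with SB431542, nearly all of it from Tfap2c (1.22 ± 0.05), and 1.32 to 1.42 against 1.27 to 1.34 without it, where the groups overlapped. Of 6 tested markers of the 2-cell-like state, named for its likeness to the cleaving embryo, 4 fell, and the sum was 14.6 to 16.3 with DMSO and 11.1 to 12.3 with SB431542, and 5.91 to 6.42 against 3.01 to 3.35 without Zfp352. The part of these cell states in the changes of the 5 genes was not tested.

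The nearest tested genes on either side of each marker, by the order of the RefSeq gene table, passed in 2 of 10 cases, both at Fbxo15. Of all features tested, 12.6% passed. Untested genes lie between in some cases, and Nanog, for example, is at place 5 after Dppa3. The nearest tested genes on either side of Dppa3 are Gdf3 (-0.12 ± 0.05) and Nanog (-0.02 ± 0.06), neither of which passed. The tested gene before Fbxo15, Cyb5a, rose by 0.27 on the log2 scale, a call lost in all 6 fits without 1 array, and the one after it, the mitochondrial import gene Timm21, fell by 0.49. Tcl1 is flanked by Tcl1b4, which did not pass, and by D430019H16Rik (-0.38 ± 0.11, limma adjusted p = 0.0868). Pecam1 is flanked by Tex2 (0.04 ± 0.05) and Milr1 (-0.09 ± 0.05), and Dppa5a by Gsta2 (0.07 ± 0.30) and Ooep, none of which passed. Gsta2 was well above background on only 3 of the 6 arrays.

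Among features with a gene symbol, those whose centred values over the 6 arrays were nearest to each gene were listed, with the Euclidean distance as the measure. Nearest to Dppa3 were Sms, the gene of spermine synthase (distance 0.12, log2 change 0.85), Rundc3a (0.12) and Ephx2 (0.13). Nearest to Fbxo15 were Rasgrp2 (0.10), Ppm1e (0.11) and Dmrt3 (0.12), and nearest to Tcl1 were Rab17 (0.11), Nxn (0.12) and the collagen chaperone gene Serpinh1 (0.14). Pecam1 was nearest to Sbsn (0.02), Gm7904 (0.03) and Rtn2 (0.04), and Dppa5a to Pde1b (0.06), Slc38a3 (0.07) and the ERK phosphatase gene Dusp6 (0.07). With 2 groups and 6 arrays such a distance mostly reflects the size of the change between the groups.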

How the data were processed

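Per the file headers, Agilent Feature Extraction wrote the deposited intensity values, background-subtracted and detrended within each array, and flag scores of 0 or 1 for spots well above background, saturated or outlying; version 10.7 is named in the submitters' processing notes. The authors also deposited a table on the log2 scale, the steps behind its normalization being not stated in the labels. It served as an alternative.

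Outlier spots were left out and spots of a probe averaged. From the log2 processed signal the array's own 75th percentile (control probes left out) was subtracted, and a probe was kept where 3 or more of the 6 arrays had it well above background. Accessions were matched without version to RefSeq symbols of assembly GRCm38.p6 (27200 probes matched, 28387 without a symbol). The grid build is mm9, so that table served for names and gene order only. Each gene was represented by its brightest probe.

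SB431542 minus DMSO was tested with limma 3.58.1 (lmFit and eBayes, R 4.3.3, Python 3.11.15 for reading), two-sided, with Benjamini-Hochberg adjustment over 25898 features and a threshold of 0.05. Features past it are said to have risen or fallen. Errors are standard errors of the fit, and intervals are at 95%. Precision is limited by the number of arrays. The fit and the adjustment, but not the earlier steps, were tested on simulated data, with 50 changed features of each size. Log2 changes of 0.5 were recovered in 40% of them, of 1 in 66%, of 2 in 88% and of 3 in 100%. The simulated data held a smaller share of changed features than was called here. The adjustment was stricter there, so these rates need not hold for these data. A gene that did not pass is not shown to be unchanged.

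The genes, the related lists and the marker lists (endothelial, germ cell, fibroblast, primitive endoderm, trophoblast, 2-cell-like, embryonic stem cell) were chosen with earlier results of these data known. Genes named besides the 5 were up to 3 of each related list with the smallest adjusted p, measured genes of the Tcl1, KH-domain, SCF and DNA methylation lists, the nearest tested neighbours and the 3 nearest profiles; others that are named serve as examples chosen after their values were seen. The planned normexp alternative used the median spot signal, since the files hold no mean signal. A result of the Tcl1 list is not reported here, and no count is given for that list.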

Additional observations from a re-analysis of the deposited data

How the results depend on the processing

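Dppa3 (log2 change 0.73 to 0.82), Fbxo15 (0.75 to 0.81), Tcl1 (-0.93 to -0.79) and Dppa5a (-0.53 to -0.44) kept their direction and passed the threshold under all 16 alternatives, with adjusted p of at most 0.0239, 0.0235, 0.0279 and 0.0426. Pecam1 kept its direction under all 16 and passed under 10. With the replicate block its change was -0.27 with an adjusted p of 0.0821, and leaving out single arrays gave -0.28 to -0.26 with adjusted p of 0.0315 to 0.0884. All 5 genes passed under 10 alternatives and 4 under the other 6, and 4 to 5 when leaving out an array. The slide as a block is the same fit as that without SB431542 replicate 3.

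Of all features, 2098 changed with no filter on dim probes (792 higher), which tests more features, and 1567 with the replicate block (545 higher, 1022 lower). Leaving out single arrays, which leaves fewer samples, gave 1467 to 2910 changed, 542 to 1235 higher and 925 to 1675 lower. Of 68 other genes followed, the neighbours that missed the threshold had no call to lose, and 21 of the rest lost theirs in at least 1 such fit. The cause was not tested for any single gene. Sign changes were seen 9 times, all in genes that missed the threshold: under normexp Gsta2 (-0.00754) and Tex2 (-0.00902), with a gene's probes averaged Gdf3 (0.00708), Milr1 (0.0350) and Tex2 (-0.0125), and, leaving out single arrays, Nanog (-0.0517 to 0.0161) without DMSO replicate 1 or SB431542 replicate 1 and Gsta2 (-0.20 to 0.27) without DMSO replicate 3 or SB431542 replicate 1. The labels do not say whether same-numbered arrays of the groups belong together, and no pairing was assumed in the main fit. Their deviations from the group means correlated at 0.00169, 0.07 and -0.06, which cannot settle the question. The replicate block above gives the results with pairing.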
